A study of Mus musculus with 31 samples.

Results

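The comparison set polysome RNA against monosome RNA from neocortex of mice labelled HuR cKO at embryonic day 13 (E13). HuR is the RNA-binding protein encoded by Elavl1, and cKO stands for a conditional knockout. Its 6 libraries, 3 polysome and 3 monosome, were chosen by their column labels out of the 31 libraries of the series, and all genes were compared. Each lysate contained cycloheximide, which holds ribosomes on mRNA, and was run through a sucrose gradient that was cut into 14 fractions. The polysome pool joined fractions 9 to 12 and the monosome pool joined fractions 4 to 7, which span free subunits and single ribosomes. The groups used for comparison were cKO E13 total RNA (2 libraries), cKO polysome (3) and monosome RNA (2) from the day of birth (P0), and WT E13 polysome (2) and monosome RNA (2). The labels give no Cre driver, no deleted part of Elavl1 and no strain, do not say which gradient tube size a library came from, and do not say that each library came from its own animal. The p-values therefore measure the spread between the libraries of each fit, which may be technical. Each main fit also held groups that are not compared here, such as cKO P0 total RNA (3 libraries) in the cKO fit.

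Polysomes are mRNAs that carry several ribosomes at once, and an mRNA moves further into the gradient the more ribosomes it carries. The monosome pool holds mRNAs with a single ribosome, mRNAs bound to a small subunit, and RNAs that sediment at that size without being translated. At E13 the neocortex consists mainly of dividing radial glia and intermediate progenitors and of the first neurons. HuR binds AU-rich and U-rich stretches in many mRNAs and is known to affect their stability and translation. The mRNAs of ribosomal proteins and elongation factors begin with a run of pyrimidines called a 5′ terminal oligopyrimidine (TOP) motif, which is known to let the cell shift these mRNAs together between polysomes and lighter fractions.

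The ribosomal protein and proteasome families lay on opposite sides of the comparison. The bases around the annotated starts of their most clearly separated genes are therefore shown. Each is a stretch of 30 bases from the RefSeq promoter table (GRCm38.p6), read 5′ to 3′ on the gene's strand, with the longest run of C and T found within 50 bases either side of the start in capitals. Rps27l and Psmb5 each hold a further run of the same length, left in lower case.
Rps27l (chr9:66946053-66946082, plus strand): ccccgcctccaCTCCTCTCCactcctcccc
Rps28 (chr17:33824567-33824596, minus strand): tctgtcccgaggaTTCCTgggtaccgcgtg
Rps21 (chr2:180257399-180257428, plus strand): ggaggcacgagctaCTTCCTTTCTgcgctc
Rpl41 (chr10:128549119-128549148, minus strand): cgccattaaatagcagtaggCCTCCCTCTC
Rpl35a (chr16:33056468-33056497, plus strand): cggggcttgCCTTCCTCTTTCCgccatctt
Rpl37a (chr1:72711274-72711303, plus strand): cgcattgcgTCCCTTCCTCTTCggacttgg
Psmd6 (chr14:14120933-14120962, minus strand): acctgtgacgaCTCCTCCTgcttccgctgg
Psmb5 (chr14:54617996-54618025, minus strand): cagtcggaggcagTTCCTgttgcccttgct
Psmc5 (chr11:106256158-106256187, plus strand): tggatgccggcgaTCCCTgccgagagaggg
The longest run spanned 9 bases in Rps27l, 5 in Rps28, 10 in Rps21, 10 in Rpl41, 13 in Rpl35a and 13 in Rpl37a, against 8, 5 and 5 bases in Psmd6, Psmb5 and Psmc5. The run of Rpl41 reaches the end of the window, so it may be longer than shown. Counted from the annotated start, the runs began at -22 in Rps27l, -21 in Rps28, 34 in Rps21 and 40 in Rpl41. In Rpl35a and Rpl37a they began at 24 and 23, and in Psmd6, Psmb5 and Psmc5 at -6, -17 and -14. None of the ribosomal protein runs shown began at the annotated start, so they are not shown to be TOP motifs. The genes shown also differ in coding length, with 75 to 330 bases in the ribosomal protein genes and 792 to 1218 in the proteasome genes.

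Values are FPKM as deposited, fragment counts scaled to transcript length and to library size. They do not give the depth in fragments. The share of all FPKM that fell on ribosomal protein genes was 18.8% to 24.2% in the polysome libraries, 37.0% to 44.2% in the monosome libraries and 30.7% to 32.3% in total RNA. Between 13340 and 15536 genes had a value above 0 in a library. Polysome c0 lay closest to the monosome libraries, with a mean correlation of log2 values across genes of 0.896, beside 0.836 for polysome c1 and 0.874 for polysome c2. Markers of the labelled tissue were present. Over 8 radial glia markers the summed FPKM was 1124 to 1361 in polysome and 964 to 1066 in monosome libraries, and over 5 neuron markers it was 306 to 809 in polysome and 206 to 289 in monosome libraries. Over 4 interneuron markers the sum was 0.0336 FPKM in polysome c0 and 0.0391 in monosome c0, and 5.77 to 10.3 in the other polysome and monosome libraries.

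The Elavl1 gene occupies bases 4285382 to 4325413 of chromosome 8 on the minus strand (GRCm38), with a coding length of 978 bases and an annotated 3′ UTR of 4221 bases. It had 28.3, 29.9 and 29.996 FPKM in cKO polysome libraries, against 83.9, 80.03 and 82.03 FPKM in cKO monosome libraries and 55.4 and 42.5 FPKM in cKO total RNA. The polysome libraries did not overlap the monosome libraries and lay below them. The log2 fold change, polysome over monosome on log2(FPKM + 1), was -1.45 ± 0.21 (SE, the form used for all fold changes below), with an adjusted p of 2.4e-05 from limma. A gene-level value does not show which exons the fragments cover, so these fragments do not tell intact from recombined Elavl1 mRNA.

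The comparison asks which mRNAs of the HuR cKO embryo had a larger share of polysome RNA than of the lighter pool. Values are scaled within each library, and the amount of RNA in each pool is not known. A fold change therefore does not show in which pool most of an mRNA lay. The shares of other genes also shift with those of the abundant ribosomal protein genes. Below, lying towards or leaning to a pool means a larger share there. Of 12302 genes tested, limma called 2797 higher in polysome RNA (22.7%) and 2751 lower (22.4%) at an adjusted p under 0.05, with 5548 (45.1%) called in either direction. The median log2 fold change over all genes was 0.01, with quartiles of -0.58 and 0.60. In 2870 genes (23.3%) every polysome library exceeded every monosome library, and in 2933 (23.8%) every polysome library lay below. These shares are the background for the counts below, in which "higher" and "lower" mean called by this test.

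Most of the largest decreases in polysome RNA were of genes with short reading frames or of non-coding RNAs, though the largest of all, Amd2, has 1002 coding bases. Rpl41, the ribosomal protein gene with the shortest coding sequence tested (75 bases), had 2729, 2343 and 1371 FPKM in polysome libraries, against 26256, 18632 and 19685 in monosome libraries (-3.37 ± 0.38, adjusted p = 2e-06). Gng5, a G protein gamma subunit (204 coding bases), had 195, 168 and 123 FPKM in polysome, against 2023, 1176 and 1364 in monosome libraries (-3.21 ± 0.31). Mzt1, a component of gamma-tubulin complexes (234 coding bases), had 32.2, 9.36 and 12.95 FPKM in polysome, against 214, 103 and 176 in monosome libraries (-3.23 ± 0.41). In each of these genes the groups lay far apart, with no overlap. Lower values of similar size were found for Bola3, which acts in iron-sulfur cluster assembly in mitochondria (-3.20 ± 0.40), for the RNA-binding subunit Lsm5 (-3.16 ± 0.36), for Ttc32 (-3.07 ± 0.35) and for Ccdc72 (-3.07 ± 0.30), and for the non-coding RNAs H19 (-3.19 ± 0.41) and Snhg6 (-3.16 ± 0.37). Amd2, a copy of the S-adenosylmethionine decarboxylase gene of polyamine synthesis, had 4.11, 28.4 and 53.02 FPKM in polysome, against 267, 209 and 204 in monosome libraries (-3.49 ± 0.53). Its polysome libraries spread widely, and reads shared with Amd1 (-0.59, adjusted p = 0.785) make its value uncertain.

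The largest increases included Aamp, linked to cell migration, with 121, 193 and 139 FPKM in polysome, against 17.1, 24.3 and 25.9 in monosome libraries (2.69 ± 0.25, adjusted p = 1e-06). Pef1, a calcium-binding protein, had 69.2, 84.1 and 64.3 FPKM in polysome, against 7.61, 16.01 and 15.2 in monosome libraries (2.45 ± 0.29). Igfbp2, a secreted binding protein of insulin-like growth factors, had 602, 674 and 427 FPKM in polysome, against 133, 107 and 84.4 in monosome libraries (2.38 ± 0.29). Every polysome library exceeded every monosome library in these genes. The others were the lysosomal protease Ctsl (2.49 ± 0.31), the hydrolase Bphl (2.48 ± 0.41), the transcription factor IIH subunit Gtf2h4 (2.45 ± 0.28), Dnajc17 (2.42 ± 0.24) and Rcn3, a calcium-binding protein of the endoplasmic reticulum (2.38 ± 0.26). Akr1b3, aldose reductase, had 51.5, 22.4 and 24.5 FPKM in polysome libraries, against 0, 0 and 1.28 in monosome libraries (4.58 ± 0.62). Akr1b3 has close paralogs and pseudogenes, and its values of 0 may be failed estimates, so its change is uncertain.

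Ribosomal protein mRNAs lay towards monosomes in both subunits. Of 33 small-subunit genes tested, 32 were lower and 0 higher in polysome RNA, with a median log2 fold change of -1.60 beside 0.01 over all genes. For the large subunit the test called 38 lower and 1 higher among 49 genes (median -1.47). Rps12 had 2326, 1408 and 1001 FPKM in polysome, against 15438, 11065 and 10801 in monosome libraries (-3.04 ± 0.40, adjusted p = 1e-05). Rps28 had 1715, 1241 and 1023 FPKM in polysome, against 10401, 7805 and 8162 in monosome libraries (-2.75 ± 0.34). Rpl35a had 1488, 826 and 889.5 FPKM in polysome, against 6299, 5480.4 and 6069 in monosome libraries (-2.53 ± 0.34). Among the polysome libraries c0 was the highest in all 3 genes and still lay below each monosome library. Rps27l (-3.05 ± 0.35), Rps21 (-2.81 ± 0.35), Rps29 (-2.88 ± 0.38), Rpl37a (-2.16 ± 0.32), Rpl38 (-2.28 ± 0.35) and Rpl39 (-2.27 ± 0.34) were also lower. The members differed among themselves: Rps9 (-0.84) and Rpl10 (-0.83) were lower by much less, and Rpl8 (-0.50, adjusted p = 0.199), Rpl19 (-0.45, 0.241) and Rpl7a (-0.17, 0.679) were not called. Rpl26 went against its list, with 437, 197 and 164 FPKM in polysome, against 52.7, 26.8 and 70.99 in monosome libraries (2.35 ± 0.36). Rps27 was the small-subunit gene not called, and its libraries ran from 0.114 to 406 FPKM in polysome and from 9.91 to 1179 FPKM in monosome RNA. Ribosomal protein genes have many processed pseudogenes, so the sharing of fragments among copies makes single members uncertain.

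**Figure D1:**
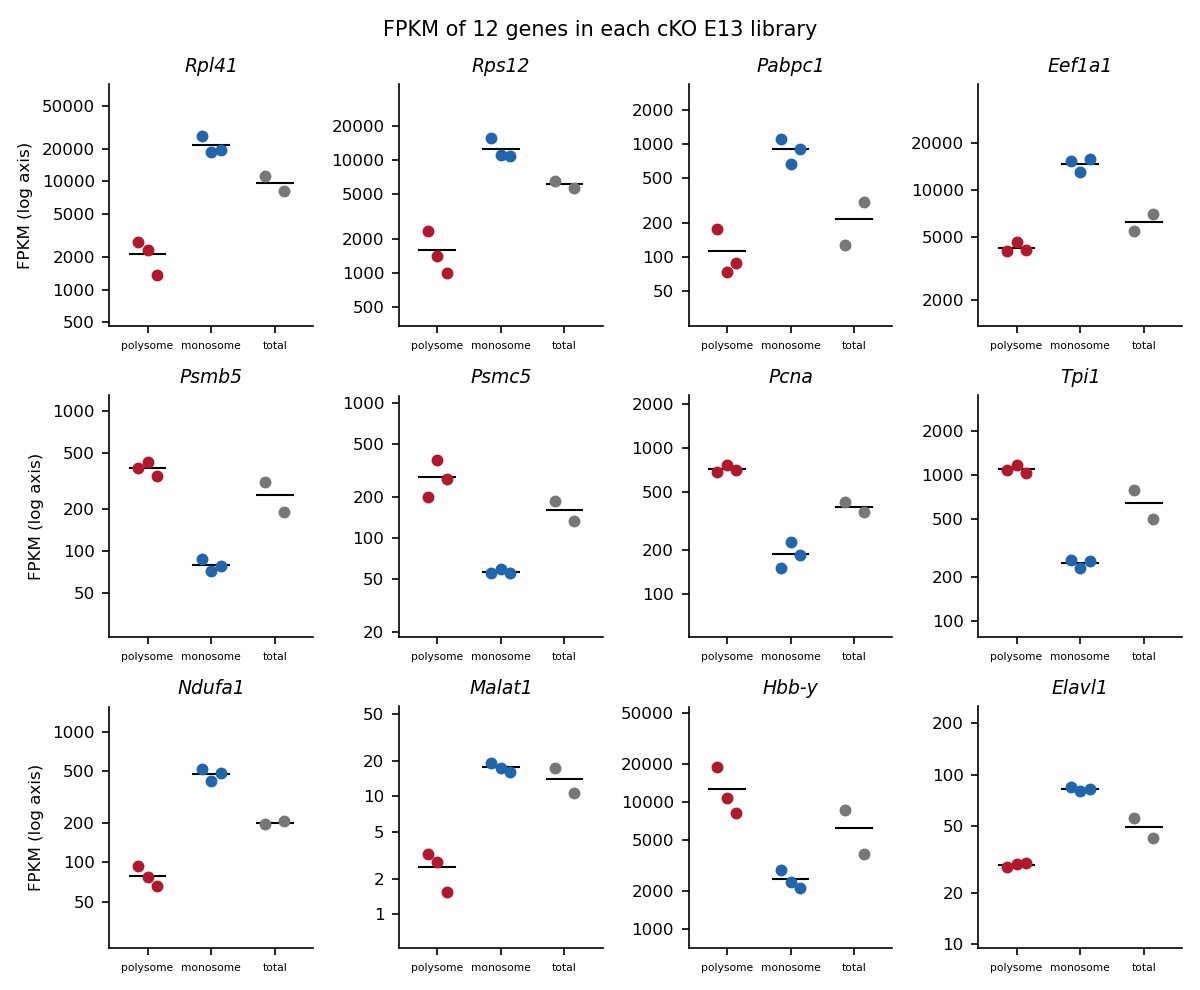
FPKM of 12 genes on log axes in the 3 polysome (red), 3 monosome (blue) and 2 total RNA (grey) libraries of cKO E13 neocortex, with a point per library and a bar at the mean. Polysome and monosome libraries do not overlap in any of the 12 genes, and the total RNA means lie between both pools.

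A list of elongation factors, poly(A) binding proteins and other genes, among them Gspt1, Npm1, Btf3 and Tpt1, divided. Several of these mRNAs also carry TOP motifs. Of 17 tested, 7 were lower and 4 higher in polysome RNA (median -0.28). Pabpc1, the main cytoplasmic poly(A) binding protein, had 176, 73.1 and 88.8 FPKM in polysome, against 1110.3, 659.7 and 899.9 in monosome libraries (-3.04 ± 0.36, adjusted p = 3e-06). Eef1a1, which brings aminoacyl-tRNA to the ribosome, had 4065, 4661 and 4155 FPKM in polysome, against 15387, 12958 and 15649.9 in monosome libraries (-1.77 ± 0.28). Tpt1 (-2.50 ± 0.39), Eef2, which moves the ribosome along the mRNA (-1.66 ± 0.26), Pabpc4 (-2.09 ± 0.24), Eef1b2 (-1.58) and Eef1g (-1.56) were lower as well. The higher members were Eef1d (1.25), Npm1 (0.93), the termination factor Gspt1 (0.92) and Btf3 (0.68). Initiation factor genes went both ways, with 20 higher and 9 lower of 44 (median 0.56). The helicases Eif4a3 (2.22 ± 0.24) and Eif4a1 (1.54), the cofactor Eif4h (1.94 ± 0.21), Eif3g (1.85 ± 0.23) and Eif2b1 (1.69 ± 0.19) were higher. The lower members were the cap-binding inhibitors Eif4ebp2 (-2.08 ± 0.23) and Eif4ebp1 (-1.88), and Eif3f (-1.46), Eif3e (-1.03), Eif3h (-0.82), Eif4b (-0.93), Eif4a2 (-0.70), Eif4g2 (-0.86) and Eif2a (-0.94).

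Proteasome mRNAs lay towards polysomes. The proteasome is the protease that degrades ubiquitin-tagged proteins, and 31 of its 35 tested genes were higher and 1 lower, with a median of 1.77. Psmb5, the catalytic subunit with chymotrypsin-like activity, had 396, 434 and 345 FPKM in polysome, against 87.5, 72.04 and 77.8 in monosome libraries (2.29 ± 0.23, adjusted p = 1e-06). Psmc5, an ATPase of the regulatory cap, had 203, 379.9 and 272 FPKM in polysome, against 55.05, 58.8 and 55.4 in monosome libraries (2.27 ± 0.23). The lowest polysome library exceeded the highest monosome library by a wide margin in both genes. Psmd6 (2.14 ± 0.20), Psmc4 (2.19 ± 0.23), Psma2 (1.96 ± 0.21) and Psmd3 (2.30) were also higher. The lower member was Psmb10, a subunit of the immunoproteasome, with 4.66, 5.55 and 2.29 FPKM in polysome, against 9.96, 6.16 and 7.41 in monosome libraries (-0.81 ± 0.29, adjusted p = 0.031). Psmd8 (0.15), Psma3 (0.34) and Psmd1 (0.41) were not called.

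Other families of soluble enzymes and folding factors had more members higher than lower. Of 17 glycolysis genes, 11 were higher and 0 lower (median 1.34). Tpi1, triosephosphate isomerase, had 1083, 1164 and 1035 FPKM in polysome, against 262, 231 and 256 in monosome libraries (2.13 ± 0.22, adjusted p = 1e-06), and Pgam1 (1.85 ± 0.21), Pfkl (2.21 ± 0.34) and Aldoc (2.00 ± 0.33) were higher too. The hexokinase genes Hk1 (0.74) and Hk2 (-0.11) were not called. Of 20 chaperonin and heat shock genes, 13 were higher and 2 lower (median 0.95), with the chaperonin subunit Cct6a (1.83 ± 0.27) and the co-chaperones Stip1 (1.72 ± 0.30) and Cdc37 (1.36 ± 0.21) higher, and the mitochondrial co-chaperonin Hspe1 (-1.74 ± 0.28) and Hsp90ab1 (-0.91) lower. Of 20 aminoacyl-tRNA synthetase genes, 12 were higher and 1, Qars (-0.93), lower (median 0.76). Hars had 62.1, 109.6 and 73.4 FPKM in polysome, against 18.6, 18.6 and 17.4 in monosome libraries (2.07 ± 0.21), and Yars (1.90 ± 0.24) and Wars (1.82 ± 0.31) were higher. In Wars and Farsa the polysome libraries differed among themselves, with 31.7, 105 and 55.3 FPKM for Wars and 34.8, 97.2 and 61.6 FPKM for Farsa, lowest in c0 and highest in c1. Of 22 cholesterol synthesis genes, 11 were higher and 2 lower (median 0.68), with Ebp (1.77 ± 0.21), Fdps (1.71 ± 0.25) and Pmvk (1.57 ± 0.19) higher and Insig1 (-1.23), which holds back the pathway, and Mvk (-0.89) lower.

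**Figure D2:**
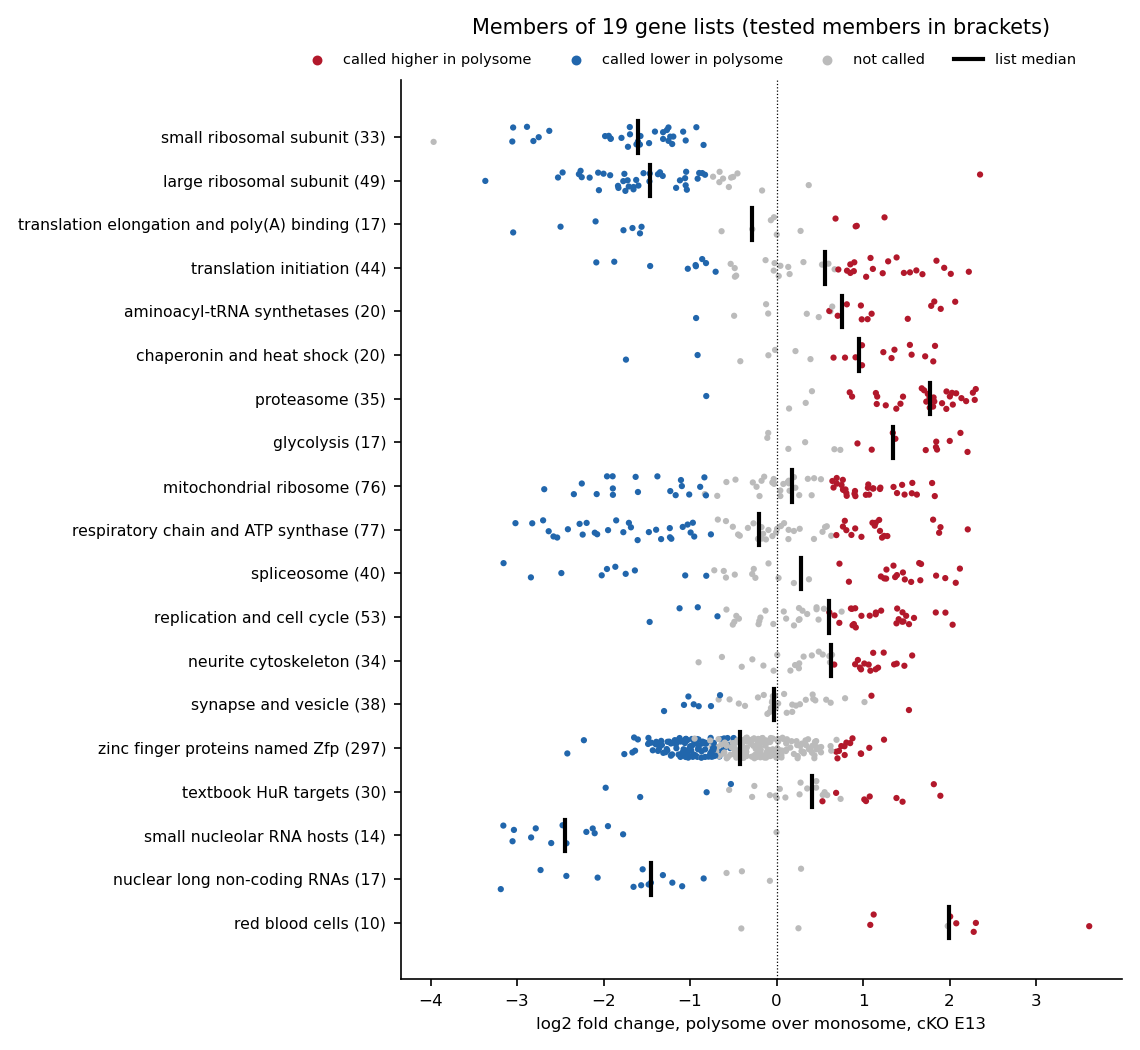
Log2 fold change, polysome over monosome, of each tested member of 19 gene lists in cKO E13, with a point per gene (red, called higher; blue, called lower; grey, not called) and a black bar at the list median. Medians run from -2.45 for small nucleolar RNA hosts to 1.99 for red blood cell genes, and several lists hold members at both ends.

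Complexes with both small and large subunits split by coding length. Of 77 genes of the respiratory chain and ATP synthase, 19 were higher and 30 lower (median -0.20). Among the 49 with a coding length of at most 522 bases, the shortest of 10 equal length groups of tested genes, 4 were higher and 26 lower (median -0.95), and among the 27 longer ones with a known length 15 were higher and 4 lower (median 0.81). Ndufa1, a small complex I subunit (210 coding bases), had 94.5, 77.7 and 65.7 FPKM in polysome, against 521, 419 and 485 in monosome libraries (-2.58 ± 0.24). Ndufc1 (-3.02 ± 0.28), Cox8a (-2.82 ± 0.29) and Cox7c (-2.54 ± 0.27) were lower, and Ndufa9 (2.21), the ATP synthase beta subunit Atp5b (1.90) and the complex I subunit Ndufv1 (1.88) were higher. Mitochondrial ribosomal protein genes gave 31 higher and 19 lower of 76 (median 0.18). Of the 29 short ones 3 were higher and 14 lower, and of the 47 longer ones 28 were higher and 5 lower. Mrps24 (-2.69 ± 0.30) and Mrpl54 (-2.34 ± 0.27) stood at the lower end and Mrps22 (1.80 ± 0.19) and Mrpl16 (1.48 ± 0.18) at the higher. Spliceosome genes gave 19 higher and 10 lower of 40 (median 0.29), with 3 higher and 9 lower among 16 short genes and 16 higher and 1 lower among 24 longer ones. The small Sm and Lsm proteins Snrpf (-2.84 ± 0.32), Snrpg (-2.49 ± 0.33) and Lsm6 (-2.02 ± 0.23) were lower, and Snrpc (2.07 ± 0.27) was higher. Among 28 genes of the secretory pathway, 15 were higher and 5 lower (median 0.86), and all 5 lower ones were among the 6 short genes. The signal recognition particle proteins Srp9 (-2.68 ± 0.28) and Srp14 (-2.07 ± 0.24) were lower, and the folding and glycosylation enzymes Pdia6 (2.10 ± 0.35) and Ddost (1.49 ± 0.28) were higher. The ribosomal protein genes did not split in this way: the 10 longer small-subunit genes were all lower (median -1.26), beside 22 of 23 short ones (median -1.79). Of the large-subunit genes, 13 of 20 longer and 25 of 29 short ones were lower (medians -0.97 and -1.75). All 35 tested proteasome genes were longer than 522 bases.

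Across all 11800 genes with a coding length in GENCODE vM21, ordered by length into 10 equal groups, the shortest group (75 to 522 bases) had a median of -0.88, with 54.2% lower and 9.92% higher. Without ribosomal protein genes its median was -0.81. Group 2 had a median of -0.07, groups 3 to 8 lay between 0.16 and 0.27, and the longest group (3396 to 22179 bases) had a median of -0.15 with 6.61% higher and 13.6% lower. The relation was therefore not a steady trend, and Spearman's correlation across genes, which are not independent replicates, was 0.093. Over UTR lengths it was -0.060 for 5′ UTRs and -0.087 for 3′ UTRs. The spread across genes shrank with length, with an SD of 1.16 in the shortest group and 0.509 in the longest.

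**Figure D3:**
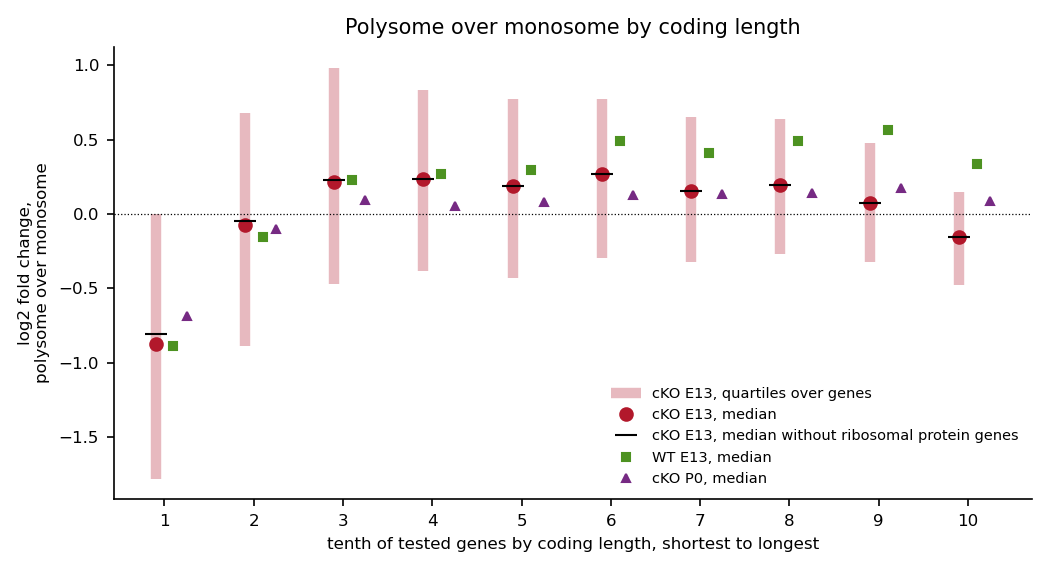
Log2 fold change, polysome over monosome, by group of tested genes, 10 equal groups ordered by coding length, with medians as points, quartiles over genes as bars for cKO E13, and black dashes for cKO E13 without ribosomal protein genes. The shortest group lies at -0.88 in cKO E13, -0.89 in WT E13 and -0.68 in cKO P0, and the longest group lies below 0 in cKO E13 (-0.15) and above 0 in WT E13 (0.33). WT values come from a separately scaled table. Their median over all genes was 0.24, and 0.04 after median ratio rescaling, beside 0.01 in cKO. The signs are therefore not compared between genotypes.

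Non-coding RNAs lay towards the monosome pool. Of 97 long intergenic non-coding RNAs tested, 70 were lower and 0 higher (median -1.32), beside 2481 lower (21.0%) and 2768 higher of 11799 protein-coding genes (median 0.04). Genes annotated as antisense were lower for 45 of 68 (median -1.06) and processed transcripts for 47 of 81 (median -1.10). The TruSeq kit used does not keep the strand, so fragments of antisense genes and their partners cannot be told apart. Hosts of small nucleolar RNAs, which carry those RNAs in their introns, were lower for 13 of 14 (median -2.45), and the remaining one, Snhg9, was listed at 0 in all 6 libraries. Snhg8 had 6.29, 7.51 and 4.78 FPKM in polysome, against 72.2, 46.9 and 55.4 in monosome libraries (-3.04 ± 0.28, adjusted p = 1e-06), and Snhg1 (-2.60 ± 0.29) and Gas5 (-2.20) were lower too. In a list of long non-coding RNAs, most of them known as nuclear, 13 of 17 were lower (median -1.45). Its lowest member was H19 (-3.19), which is known as largely cytoplasmic. Malat1, a nuclear speckle RNA, had 3.22, 2.77 and 1.55 FPKM in polysome, against 19.2, 17.5 and 16.02 in monosome libraries (-2.43 ± 0.31), and the imprinted Rian (-2.73 ± 0.26) and the paraspeckle RNA Neat1 (-1.45 ± 0.28) were also lower. With a filter of at least 5 FPKM, which leaves out low genes, 6 members of this list were called lower.

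Textbook HuR targets went both ways. Of 30 tested, 9 were higher (30%) and 4 lower (13.3%), with a median of 0.41, beside 22.7% higher and 22.4% lower over all genes. The count of higher members ran from 6 without polysome c1 to 12 without polysome c0. The higher ones included the cell cycle inhibitor Cdkn1a, with 37.5, 33.1 and 30.8 FPKM in polysome, against 10.6, 12.5 and 11.9 in monosome libraries (1.46 ± 0.21, adjusted p = 2.4e-05), and Trp53, which encodes p53 (1.89 ± 0.30), Ccnd1 (1.39 ± 0.20), Actb (1.82) and Ctnnb1 (1.03). The lower ones were the apoptosis inhibitor Xiap, with 7.58, 4.57 and 6.58 FPKM in polysome, against 27.5, 26.3 and 27.4 in monosome libraries (-1.98 ± 0.24), and the neuronal splicing factor Nova1 (-1.58 ± 0.25), Vegfa (-0.81) and Mdm2 (-0.53). Myc (-0.01) and Bcl2 (0.00) stood near 0. RNA-binding protein genes gave 14 higher (25.5%) and 11 lower (20%) of 55 (median 0.17), shares near those of all genes. Hnrnpa2b1 (2.20 ± 0.30) and Hnrnpd (1.85 ± 0.21) were higher, and Lin28b (-1.33 ± 0.24), Msi2 (-1.22) and the neuronal HuR relative Elavl3 (-1.04) were lower. The other neuronal relatives, Elavl2 (-0.26, adjusted p = 0.444) and Elavl4 (-0.33, 0.322), were not called. The lower count of this list was 7 without polysome c0, without polysome c1 or without monosome c1, and 4 in a fit of the 6 libraries alone. SR splicing factor genes were led by Srsf2 (2.14 ± 0.22), Srsf3 (1.83 ± 0.22) and Srsf7 (1.70 ± 0.20). That list gave 9 higher (26.5%) and 7 lower (20.6%) of 34, shares near those of all genes. Its lower members, which included Nktr (-1.96 ± 0.33), numbered 4 without monosome c0, monosome c2 or polysome c1 and 11 without monosome c1.

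Genes known for translational control had more lower than higher members, 12 and 5 of 28 (median -0.48). The ferritin genes Ftl1 (-1.83) and Fth1 (-1.76), whose mRNAs carry an iron-responsive element, were lower. Fth1 had 416, 297 and 215 FPKM in polysome, against 1236, 997 and 839 in monosome libraries. So were Atf4, whose upstream reading frames hold back its translation (-1.82 ± 0.25), the antizyme Oaz1 (-1.64), Sepw1 (-3.01 ± 0.31) and Gpx4 (-2.45 ± 0.30). The higher members included Uchl1 (1.73 ± 0.25) and Txnrd1 (1.38 ± 0.21), and numbered 3 without monosome c0.

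Among genes of the developing cortex, replication and cell cycle mRNAs leaned to polysomes, with 26 higher and 4 lower of 53 (median 0.61). Pcna, the sliding clamp of DNA replication, had 692, 768 and 713 FPKM in polysome, against 152, 229 and 185 in monosome libraries (1.95 ± 0.21, adjusted p = 2e-06). Cdca8 (2.04 ± 0.22), Cdk1 (1.84 ± 0.24) and Tyms (1.59 ± 0.21) were higher, and the proliferation marker Mki67 (-1.47), Foxm1 (-1.12), Orc1 (-0.91) and Anln (-0.68) were lower. Radial glia genes gave 6 higher (22.2%) and 2 lower of 27, a share of higher genes near that of all genes. Sox2 had 89.01, 96.9 and 112 FPKM in polysome, against 48.4, 48.1 and 56.8 in monosome libraries (0.94 ± 0.19), and Sox3 was higher by more (2.02 ± 0.31), while the lower members were Tead2 (-1.88 ± 0.27) and Lhx2 (-0.83). Pax6 (0.18), Hes1 (0.01) and Vim (0.04) were not called. Of 15 intermediate progenitor genes, 4 were higher (26.7%, near the share of all genes) and 1, Mfng (-2.09 ± 0.23), lower. The higher ones were Neurog1 (0.85 ± 0.23), Neurog2 (0.76 ± 0.28), Dll3 (0.89 ± 0.28) and Gadd45g (0.77 ± 0.29), and none of the 4 was called under every alternative. Neurog2 and Gadd45g lost their calls under 7 alternatives each and Dll3 under 3, with 0.55 (adjusted p = 0.0951) without monosome c1, and Neurog1 lost its call with a pseudocount of 0.1 FPKM. Eomes (0.19) was not called.

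Neurite cytoskeleton mRNAs also leaned to polysomes, with 16 higher and 0 lower of 34 (median 0.63). Stmn4, a tubulin-binding protein, had 36.2, 56.1 and 64.99 FPKM in polysome, against 10.5, 22.2 and 19.1 in monosome libraries (1.57 ± 0.27, adjusted p = 0.000148), and Stmn3 (1.48 ± 0.30), Tubb3 (1.36 ± 0.34) and Dpysl4 (1.07 ± 0.25) were higher. The count was 7 without monosome c0 and 8 without polysome c1 or polysome c2, with no filter on low values, or in a fit of the 6 libraries alone. Synapse and vesicle genes gave 2 higher (5.26%) and 7 lower (18.4%) of 38 (median -0.03), both shares below those of all genes. Syp (1.53 ± 0.32) and Syt11 (1.10 ± 0.31) were higher, and Vamp2 (-1.30 ± 0.20), Dlg4 (-1.07 ± 0.25) and Homer1 (-0.96 ± 0.29) were lower. The lower count was 4 without monosome c1 and 3 in a fit of the 6 libraries alone, and Homer1 stood at -0.61 without polysome c1 (adjusted p = 0.0811). Of 52 adhesion and guidance receptor genes, 9 were higher (17.3%) and 0 lower (median 0.10), beside 22.7% higher and 22.4% lower over all genes. The higher ones included Efnb1 (1.66 ± 0.26), Plxnb2 (1.46 ± 0.29) and Unc5b (1.47 ± 0.25). Cortical neuron identity genes gave 2 higher (7.69%) and 6 lower (23.1%) of 26, a share of lower genes near that of all genes. Cux1 (-1.27 ± 0.24) and Lmo4 (-1.05 ± 0.28) were lower and Calb2 (1.78 ± 0.26) was higher. Of 28 extracellular matrix genes 1, Sparc (1.78 ± 0.33), was higher.

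Zinc finger protein genes named Zfp, most of them DNA-binding proteins, had 13 higher and 106 lower of 297 (median -0.42). Zfp706 (-2.42 ± 0.22), Zfp580 (-2.23 ± 0.25), Zfp365 (-1.65 ± 0.22), Zfp161 (-1.36 ± 0.18) and Zfp280b (-1.60 ± 0.22) were the most clearly lower. Zfp280b had 5.21, 5.08 and 4.99 FPKM in polysome, against 14.1, 18.3 and 20.8 in monosome libraries. In this list 4 genes were in the shortest length group and 289 above it, and of the 289, 12 were higher and 102 lower (median -0.40). The lower count was 60 with a filter of at least 5 FPKM, where fewer genes were tested. Chromatin regulator genes gave 10 higher (18.9%) and 7 lower (13.2%) of 53 (median -0.12), both shares below those of all genes. Smarce1 (1.59 ± 0.19) and Smarcb1 (1.90 ± 0.28) were higher, and Tet2 (-1.08) and Crebbp (-0.82) were lower. The lower count was 2 without monosome c0 and 4 without monosome c2.

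Of 10 red blood cell genes, 7 were higher and 0 lower (median 1.99). The embryonic beta-type globin Hbb-y had 18876, 10799 and 8242 FPKM in polysome, against 2952, 2338 and 2123 in monosome libraries and 8643 and 3914 in total RNA (2.28 ± 0.55, adjusted p = 0.00251). Hba-x, an embryonic alpha-type globin, had 12126, 6112 and 3137 FPKM in polysome, against 2050.1, 1721 and 874 in monosome libraries (2.08 ± 0.47). Polysome c0 held the most globin RNA, and every polysome library exceeded every monosome library in both genes. The summed FPKM of 6 red blood cell markers was 12701 to 36854 in polysome, 3566 to 6454 in monosome and 6085 to 15652 in total RNA. The higher count was 4 without polysome c0 and 4 without monosome c2. In Hbb-b2 the monosome libraries stood at 0.00106, 0.617 and 0 FPKM, and globin genes share fragments with close paralogs, so the size of its change (3.62 ± 0.79) is uncertain. For the level of marker RNA in a library, fewer cells of a type and less RNA per cell cannot be told apart in these bulk pools. The fold changes between pools are not measures of cell number. Of endothelium and pericyte genes 4 of 11 were higher and 1, Egfl7 (-1.42 ± 0.21), lower. Of microglia genes 3 of 8, all complement C1q chains, were higher, and Tyrobp (-1.53 ± 0.40) was lower. Meninges genes gave 2 higher (20%) and 1 lower (10%) of 10, and interneuron genes 1 higher (8.33%) and 3 lower (25%) of 12. The meninges share of higher genes and the interneuron share of lower genes were near the 22.7% and 22.4% of all genes. Dcn (0.81) and Sst (-1.14) kept their calls under 7 and 8 of 14 alternatives. The part of the varying interneuron and red blood cell RNA in the other results was not tested.

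Runs of at least 10 pyrimidines (C or T) in the sense strand within 50 bases of the annotated start were counted because TOP motifs are of this kind. They occurred in 20.6% of all 27025 genes with a RefSeq promoter sequence and in 20.0% of the tested genes that had one. They were found in 14 of 25 small-subunit (56%) and 31 of 36 large-subunit ribosomal protein genes (86.1%), in 3 of 29 proteasome genes (10.3%), in 17.9% of mitochondrial ribosome genes, in 13.6% of Zfp genes and in 5% of cell cycle genes. In the elongation and poly(A) binding list they occurred in 3 of 12 genes (25%), and in the initiation list in 27.8%, not far from the share of tested genes. Outside the ribosomal protein genes, the direction of the difference between genes with and without a run changed with coding length. With genes in 5 groups by coding length, the median log2 fold change in the shortest group was -0.30 with a run and -0.42 without. In groups 2, 3 and 4 it was 0.20, 0.08 and 0.13 with a run, against 0.24, 0.28 and 0.19 without. In the longest group it was -0.05 with and -0.05 without. A run in this window is a match of letters, not a mapped start site.

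In WT neocortex of the same age the comparison gave much the same order of genes. WT libraries come from a separately scaled table, so only the fold changes within each table are set side by side. Across 12001 genes the correlation of cKO and WT log2 fold changes was 0.911, as a description across genes. The genotypes share no library. Of 4452 genes called in both, 4450 had the same direction, 2373 higher and 2077 lower. They make up 81.4% of the genes called in cKO and 68.9% of those called in WT. In WT, 3951 of 12123 genes were higher (32.6%) and 2515 lower (20.7%), with a median of 0.24 over all genes. Median ratio rescaling of the WT libraries turned this split into 3039 higher and 3043 lower and lowered the median to 0.04. Beside medians over all genes of 0.01 in cKO and 0.24 in WT, list medians were -1.60 in cKO and -2.10 in WT for the small subunit, 1.77 in cKO and 2.06 in WT for the proteasome, and 0.61 in cKO and 1.19 in WT for cell cycle genes. Red blood cell genes had unlike medians, 1.99 in cKO (7 of 10 higher) and -0.24 in WT (1 of 9 higher).

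A test of the difference between genotypes, cKO minus WT in a fit of all 31 libraries, called 1 of 12233 genes (0.00817%), which was Elavl1 itself, while 1366 genes had an unadjusted p under 0.05. In cKO libraries Elavl1 was lower in polysome RNA (-1.45 ± 0.21), and in WT it was higher, with 60.6 and 42.4 FPKM in polysome, against 42.4 and 13.5 FPKM in monosome libraries (1.05 ± 0.37, adjusted p = 0.0272). The difference was -2.50 ± 0.42 (adjusted p = 0.0258). The call was lost after median ratio rescaling (-2.23, adjusted p = 0.110) and without any one of 5 libraries. The adjusted p was 0.215 without WT monosome 1, 0.0880 without cKO monosome c0, 0.0864 without cKO polysome c0, 0.0859 without WT polysome 0 and 0.0789 without cKO polysome c2. The number of genes called was 334 without cKO polysome c1 (331 lower) and 15 without cKO monosome c1. No red blood cell gene was called in this difference, nor any member of the other lists beside Elavl1. Hbb-y had 18876, 10799 and 8242 FPKM in cKO polysome, against 2952, 2338 and 2123 in cKO monosome libraries, and 6562 and 2083 in WT polysome, against 3824 and 3824 in WT monosome libraries, a difference of 2.33 ± 0.81 between genotypes (adjusted p = 0.289).

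**Figure D4:**
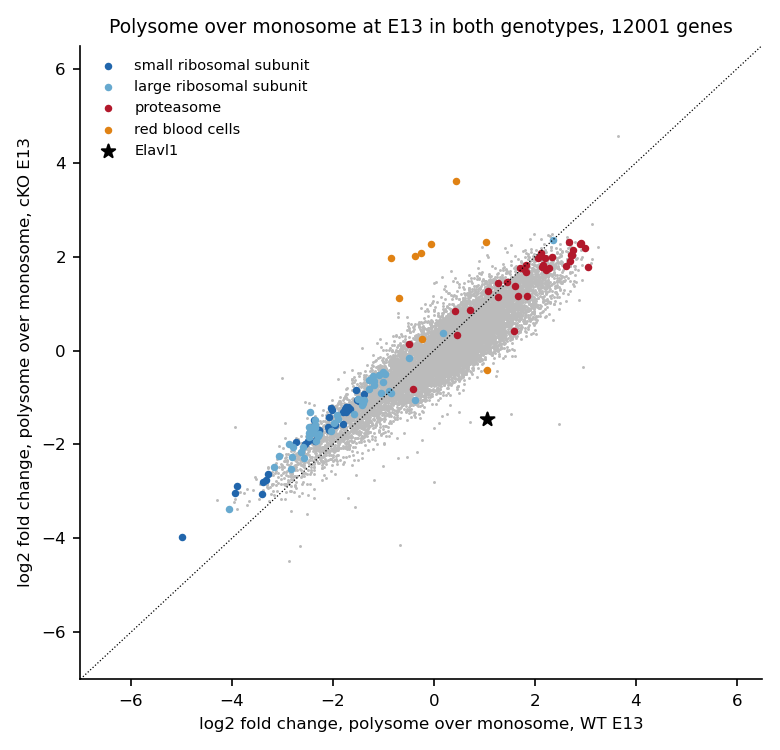
Log2 fold change, polysome over monosome at E13, in cKO (vertical) and WT (horizontal) for 12001 genes as grey points, with members of 4 gene lists in colour, Elavl1 as a star and equality as a dotted line. Elavl1 stands at -1.45 in cKO and 1.05 in WT, ribosomal protein genes lie at the lower left and proteasome genes at the upper right.

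At P0 the cKO libraries gave 3081 genes higher (25%) and 2927 lower (23.8%). Of 3792 genes called at both ages, 3689 had the same direction, and they make up 68.3% of those called at E13 and 63.1% of those called at P0. The correlation across genes was 0.749. The test of the age difference, E13 minus P0, called 653 genes higher (5.31%) and 306 lower (2.49%) of 12302, or 7.8% in all. Ribosomal protein genes had higher values of this difference, with 18 of 33 small-subunit and 28 of 49 large-subunit genes called higher. Their medians were -1.60 and -1.47 at E13, against -3.31 and -3.24 at P0. Rps12 had 2326, 1408 and 1001 FPKM in E13 polysome, against 15438, 11065 and 10801 in E13 monosome libraries, and 702, 396 and 349.7 in P0 polysome, against 17063 and 14535 in P0 monosome libraries, a difference of 2.05 ± 0.60 (adjusted p = 0.0444). The median differences were 1.71 and 1.69. Leaving out either P0 monosome library leaves that group with 1 library, which the fit assumes to vary like the other groups. The counts were then 0 and 0 without P0 monosome c0 and 0 and 2 without P0 monosome c1, while the median differences were 1.55 and 1.56 without P0 monosome c0 and 1.83 and 1.82 without P0 monosome c1. With no filter on low values the counts were 1 and 5. A fit with a block on the column numbers, described at the end, also lowered both counts. At P0 as at E13, 32 of 33 genes of the small subunit were called lower.

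Secretory pathway genes were also called higher in the age difference, for 8 of 28, as were 8 of 44 initiation factor genes and 5 of 52 adhesion genes. Secretory genes had a median of 0.86 at E13, against -0.33 at P0. Pdia6 had 122, 285 and 182 FPKM in E13 polysome, against 32.9, 48.7 and 47.5 in E13 monosome libraries, and 51.3, 33.8 and 41.4 in P0 polysome, against 37.4 and 33.4 in P0 monosome libraries (1.87 ± 0.53, adjusted p = 0.0382). The groups were apart at E13 and near each other at P0. Igfbp2 (2.27 ± 0.44), Rcn3 (2.50 ± 0.40), Ctsl (2.35 ± 0.47) and Sparc (2.80 ± 0.50) also differed. Without P0 monosome c0 the counts were 2 for secretory, 0 for initiation and 0 for adhesion genes, and without P0 monosome c1 they were 2, 1 and 0. Genes called lower in the difference included 7 of 38 synapse (18.4%) and 5 of 53 chromatin genes (9.43%). For Zfp genes the count was 8 of 297 (2.69%), near the 2.49% of all genes. Vamp2, the vesicle protein of transmitter release, had 24.02, 30.7 and 22.6 FPKM in E13 polysome, against 58.98, 62.8 and 71.9 in E13 monosome libraries, and 287, 282 and 326 in P0 polysome, against 245 and 191 in P0 monosome libraries (-1.76 ± 0.30, adjusted p = 0.00281). Without P0 monosome c0 the counts were 4 for synapse and 1 for chromatin genes, and without P0 monosome c1 they were 3 and 0. For the proteasome, 0 of 35 genes were called in the age difference, and the medians were 1.77 at E13 and 1.76 at P0. The number of genes called in either direction was 168 without P0 monosome c1 and 196 without P0 monosome c0, and lay between 347 and 546 without E13 monosome c2, P0 polysome c1 or P0 polysome c2.

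**Figure D5:**
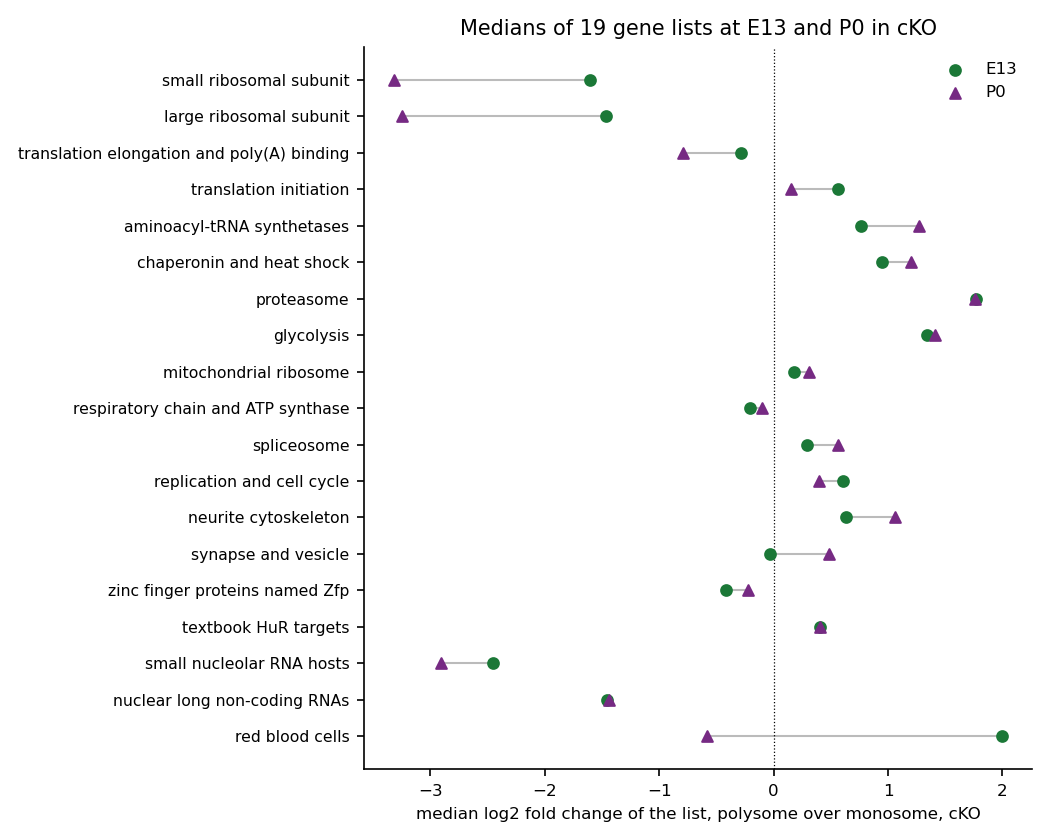
Median log2 fold change, polysome over monosome, of 19 gene lists in cKO neocortex at E13 (circles) and P0 (triangles). The ribosomal protein medians lie further below 0 at P0, the proteasome medians coincide, and the red blood cell median is 1.99 at E13 and -0.58 at P0.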

How the data were processed

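Poly(A) RNA was sequenced as paired ends from TruSeq libraries, per the labels' protocols. The authors deposited FPKM values per library in separate tables for cKO and WT, made with TopHat2 2.0.6, Bowtie2 2.0.5.0 and Cuffdiff on mm10 (GRCm38), per the submitters' processing notes. Neither the gene annotation nor the normalization across libraries is given in the sources used here. Of 23284 rows, 26 with dates or bare numbers as names were left out. Numbering starts at 0 in the cKO columns but at 1 in the titles. Each column was therefore tied to its group only and is called c0, c1 or c2.

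Tests used limma 3.58.1 (R 4.3.3; moderated, two-sided, intensity trend) on log2(FPKM + 1), for genes averaging at least 1 FPKM in the libraries of the fit. Each table was fitted with its 6 groups (10 residual degrees of freedom in cKO and 9 in WT). A joint fit of all 31 libraries (19) served for the genotype difference. Genes were called under an adjusted p of 0.05, by Benjamini-Hochberg over every gene tested. Fold changes on this scale understate changes of low genes. The script was tested on simulated data.

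The deposited FPKM hold no counts, so depth is unknown and its precision cannot be given. Low values showed that 1 fragment was worth 0.803 to 1.43 times its worth in the median library. For all of the 28 pairs of the 8 cKO E13 libraries, the ratio read from low values lay within 0.02 natural log units of the ratio of these estimates.

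Members and the 34 gene lists were chosen with earlier results of these data known. Named genes are Elavl1, the called genes of largest change, at most 10 in each direction (at least 5 FPKM in the higher group, no overlap, no predicted or small RNA genes), up to 5 members per list in order of adjusted p, and members against their list. Other members are named after their values were seen. Lengths come from GENCODE vM21, with 98.8% of tested genes matched, and sequences from RefSeq.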

Additional observations from a re-analysis of the deposited data

Results flagged for a closer look

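The genes below were picked out because their polysome to monosome ratio differed between cKO E13 and cKO P0, or between cKO and WT at E13, by a test of the difference itself. Values are differences of log2 fold changes, E13 minus P0 unless stated. Eef1a1 stood at -13.22, because it was listed at 0 in both P0 monosome libraries, where 3502, 2456 and 2530.3 FPKM were found in P0 polysome RNA. A listed value of 0 for so abundant an mRNA does not show that it was absent.

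The neuronal genes Nrgn (-2.58, adjusted p = 0.0339), Mapk8ip3 (-2.57), Dync1i1 (-2.50), Vsnl1 (-2.49) and the small GTPase gene Rhof (-2.37) were lower in the difference. Dync1i1 had 0.0413, 1.79 and 0.407 FPKM in E13 polysome, against 0.278, 2.68 and 0.398 in E13 monosome libraries, and 134, 134 and 141 in P0 polysome, against 31.02 and 24.2 in P0 monosome libraries, so its E13 ratio rests on values near the 1 FPKM that was added. Without single libraries the adjusted p reached 0.160 for Nrgn, 0.0753 for Dync1i1 and 0.0838 for Vsnl1.

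The matrix gene Bgn (3.75), Stac2 (2.93) and the globin genes Beta-s (3.46), Hbb-b1 (3.30), Hba-a1 (3.13) and Hbb-y (2.81) were higher in the difference. Bgn had 22.4, 61.9 and 30.2 FPKM in E13 polysome, against 17.1, 27.1 and 22.3 in E13 monosome libraries, and 9.18, 5.87 and 7.25 in P0 polysome, against 65.7 and 75.2 in P0 monosome libraries. Hbb-y was at 0.874, 0 and 2.56 FPKM in P0 polysome and 0 and 6.41 in P0 monosome libraries, and without P0 monosome c1 its difference was 1.37 (adjusted p = 0.338).

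Elavl1 differed between genotypes by -2.50 (cKO minus WT).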

How the results depend on the processing

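In the polysome against monosome comparison of cKO E13, the number of genes called stayed within 1.5 times 5548 under all 14 alternatives, including a block chosen after seeing the data. It ran from 4344 in a fit of the 6 libraries alone and 4637 without polysome c1 to 6071 without polysome c0. Elavl1 kept its direction and its call in each. Of the results for named genes, 2497 were on the same side of the threshold and in the same direction, 45 lost the call and 6 gained it. No result reversed. The medians of the shortest and longest length groups moved by less than their spread between libraries. For the age difference, 959 genes were called, 1500 with a pseudocount of 5 FPKM, and 168 to 1142 without single libraries. For the genotype difference 1 gene was called, 2 with a pseudocount of 5 FPKM, 8 with no filter, 0 after median ratio rescaling, and 0 to 334 without single libraries. The Elavl1 difference of -2.50 was -2.23 after rescaling and -3.29 to -1.70 without single libraries. The causes of these shifts were not tested.

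The cKO column numbers do not match the titles, so whether equally numbered columns come from the same lysate is not known. Deviations from the group means of equally numbered polysome and monosome columns correlated at 0.120, -0.042 and 0.255 across genes. Columns numbered 0 correlated best with each other, as did columns numbered 2, but columns numbered 1 did not. Interneuron markers were near 0 in both columns numbered 0. The share of FPKM on red blood cell genes fell from c0 to c2 in both pools. The main fit used no pairing, and whether the columns are paired was not tested. A replicate block on the column numbers, added after seeing the data, gave 5250 called genes at E13 beside 5548, 5357 at P0 beside 6008, and 368 in the age difference beside 959, with 0 small-subunit and 3 large-subunit ribosomal protein genes among them. It changed the calls of no named gene of the E13 comparison. In WT E13, a replicate block on the numbers of the titles gave 6813 called genes beside 6466. With 2 or 3 libraries a group and depth unknown, small differences of low genes could not be assessed.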
